A study of Mus musculus with 18 samples.

Results

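A set of 9 genes of inhibitory and tyrosine kinase signalling was followed in bone marrow-derived macrophages (BMDM) in which choline uptake or choline phosphorylation had been blocked. They are the Src family kinases *Lyn* and *Fgr*, the kinases *Syk* and *Ptk2b*, the phosphatases *Ptpn6* and *Inpp5d*, and the inhibitory receptors *Sirpa*, *Pirb* and *Lilrb4a*. The members were chosen by symbol and role, with no threshold on measured values but with earlier results of these data known, and make up 9 of the 55385 genes listed and of the 14979 genes tested. *Lyn*, *Ptpn6* and *Ptk2b* were also picked by the study from these same samples as part of a group of genes lowered by both inhibitors, so their direction here is not independent evidence.

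Cells came from the bone marrow of female C57BL/6J mice aged 12 weeks and were grown for 7 days in medium with L-929 supernatant, a source of the macrophage growth factor CSF1. They then received vehicle (Veh, 0.1% DMSO), hemicholinium-3 (HC3, 250 µM), which blocks choline uptake, or RSM-932a (RSM, 5 µM), which inhibits choline kinase, for 24 h. For a further 24 h they were left naïve (M[0]) or polarized with IL-4 at 20 ng/mL (M[IL-4]). Each of the 6 groups had 3 libraries, 18 in all, and 3 individual mice were the source of the samples. Total depth was 17457796 to 19522255 counts per library. The members other than *Fgr* had 1680 to 58729 counts in each library, whereas *Fgr* had 16 to 164, and all 9 passed the filter on low counts. The 2 inhibitors were given at 1 dose each and the doses differ.

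Macrophages weigh activating against inhibitory signals through tyrosine phosphorylation. Src family kinases such as LYN phosphorylate activating motifs (ITAMs) on receptor adaptors, to which SYK docks, but they also phosphorylate inhibitory motifs (ITIMs) on receptors such as SIRPα, PIR-B and LILRB4. Phosphorylated ITIMs recruit the tyrosine phosphatase SHP-1, the product of *Ptpn6*, or the lipid phosphatase SHIP1, the product of *Inpp5d*, which remove the phosphates that kinases and PI3-kinase add. In macrophages SIRPα binds CD47 on other cells and restrains their uptake, PIR-B binds MHC class I, and PYK2, the product of *Ptk2b*, links integrin and calcium signals to the cytoskeleton.

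Promoter sequence is shown for the phosphatase genes and for *Pirb*, as the effectors and a receptor of the inhibitory branch, windows being at hand for 5 of the 9 members. RefSeq (GRCm38.p6) windows of the 250 bases before the start site were searched on both strands for GAGGAAGT, an element bound by the myeloid factor PU.1, for TGATGNAA, a composite element of C/EBP and ATF factors, and for TTCNNNNGAA, the spacing preferred by STAT6. The capitals mark matches. The windows are chr6:124738710-124738959 on the minus strand for *Ptpn6*, chr1:87620062-87620311 on the plus strand for *Inpp5d* and chr7:3720383-3720632 on the minus strand for *Pirb*.
Ptpn6: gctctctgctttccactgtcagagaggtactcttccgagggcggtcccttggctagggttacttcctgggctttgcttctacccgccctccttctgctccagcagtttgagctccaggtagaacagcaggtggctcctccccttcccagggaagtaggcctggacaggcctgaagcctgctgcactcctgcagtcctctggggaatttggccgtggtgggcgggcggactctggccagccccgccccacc
Inpp5d: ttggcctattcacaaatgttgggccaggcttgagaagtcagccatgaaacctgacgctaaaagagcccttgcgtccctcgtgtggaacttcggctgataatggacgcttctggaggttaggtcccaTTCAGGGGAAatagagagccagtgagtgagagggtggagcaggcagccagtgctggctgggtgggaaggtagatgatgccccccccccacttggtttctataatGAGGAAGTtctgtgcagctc
Pirb: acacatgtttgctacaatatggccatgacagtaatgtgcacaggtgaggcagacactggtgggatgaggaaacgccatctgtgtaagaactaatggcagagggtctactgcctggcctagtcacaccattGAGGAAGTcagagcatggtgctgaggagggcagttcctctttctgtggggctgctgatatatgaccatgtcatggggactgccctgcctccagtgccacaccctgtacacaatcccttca

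The *Inpp5d* window held GAGGAAGT, beginning 20 bases before the start, and 1 TTCNNNNGAA beginning 124 bases before it, which reads the same motif on either strand. The *Pirb* window held GAGGAAGT beginning 120 bases before the start. The *Ptpn6* window, those of *Fgr* and both of *Syk* held none of the 3 motifs. GAGGAAGT was in 2.44% of 32851 such windows of the genome, TGATGNAA in 3.45% and TTCNNNNGAA in 5.85%. For *Ptpn6*, another annotated start of a protein-coding transcript lies 5555 bases downstream of this window's start site, and for *Inpp5d* one lies 55927 bases downstream, and counts summed over the gene cannot tell the starts apart.

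The first question was what each inhibitor did to these genes in naïve macrophages. Levels are CPM (a gene's counts relative to the library total) scaled with trimmed means (TMM), given as mean ± SD of 3 libraries, and differences are edgeR log2 fold changes with their standard error (SE) and the false discovery rate (FDR) over all 14979 genes. HC3 lowered 8 of the 9 genes at an FDR under 0.05, against 21.5% of all genes tested, and RSM lowered 8 of 9, against 20.7%. With the further demand of a log2 fold change of at least 1 in size, HC3 lowered 3 (*Lyn*, *Ptpn6* and *Inpp5d*), against 6.11% of all genes, and RSM 2 (*Ptpn6* and *Fgr*), against 6.51%. No member rose with either inhibitor, all 9 fitted values being negative with each. The median log2 fold change of the members was -0.97 with HC3 and -0.88 with RSM, beside 0.02 and 0.01 over all genes. In bulk RNA, fewer cells of a type and less RNA per cell cannot be told apart.

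**Figure D1:**
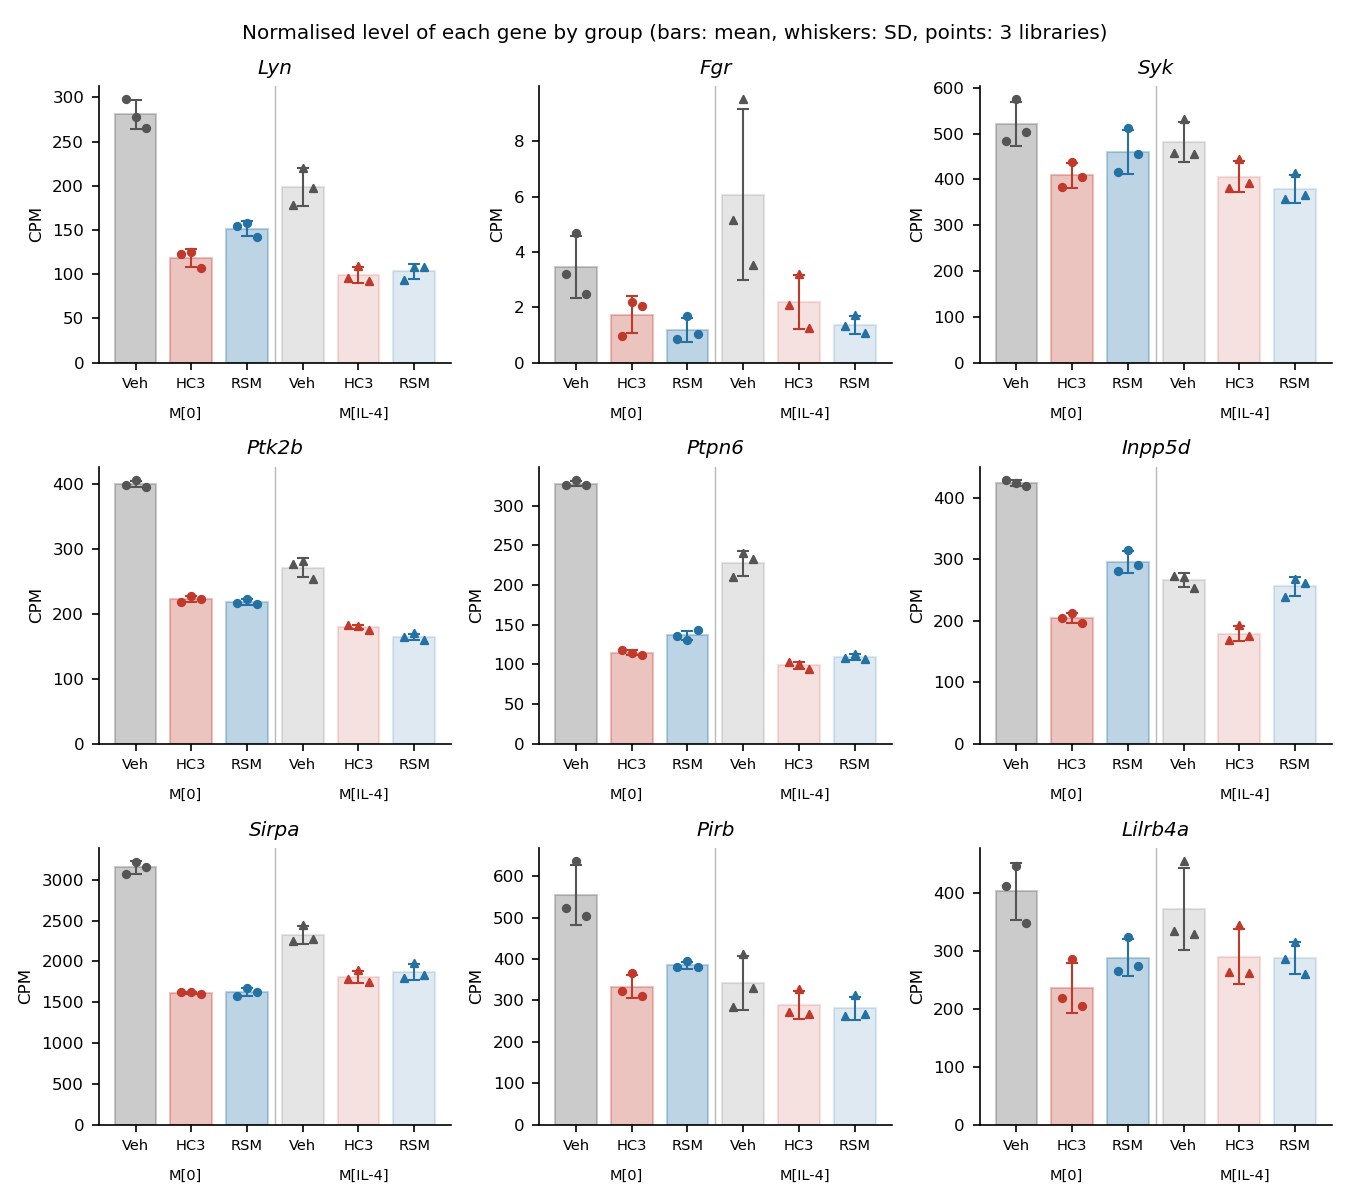
Level of each gene in CPM (y axis, from 0) in the 6 groups (x axis). Bars give the mean, whiskers the SD and points the 3 libraries of a group. In M[0] the vehicle libraries of *Lyn*, *Ptk2b*, *Ptpn6*, *Inpp5d* and *Sirpa* stand above all inhibitor libraries.

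Of the receptors, *Sirpa* (ENSMUSG00000037902, chr2:129592835-129632228) was by far the most abundant member. Its level was 3071, 3223 and 3158 CPM in the 3 Veh M[0] libraries, 1619, 1619 and 1598 CPM with HC3, and 1576, 1669 and 1629 CPM with RSM. The vehicle libraries did not overlap with those of either inhibitor, while the 2 inhibitors overlapped with each other. The log2 fold change was -0.97 (SE 0.06, FDR = 9.78e-11) with HC3 and -0.96 (SE 0.06, FDR = 1.27e-10) with RSM, so that 51.2% and 51.6% of the vehicle level remained. *Sirpa* lay just short of a log2 fold change of 1, and without replicate 1 it passed that size with HC3 (-1.01).

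*Pirb* (ENSMUSG00000058818, chr7:3711409-3720391) and *Lilrb4a* (ENSMUSG00000112148, chr10:51490956-51496611) fell less. *Pirb* went from 554.8 ± 71.5 CPM in Veh to 333.4 ± 28.5 with HC3 (log2 fold change -0.73, SE 0.12, FDR = 5.51e-05) and 385.4 ± 8.42 with RSM (-0.53, SE 0.12, FDR = 0.00146). *Lilrb4a* went from 403.4 ± 50.1 CPM to 236.8 ± 43.6 with HC3 (-0.77, SE 0.15, FDR = 0.00032) and 288.9 ± 31.7 with RSM (-0.48, SE 0.15, FDR = 0.0131). In both genes every inhibitor library was below every vehicle library, although replicate 2 was the highest library in all 3 treatments. The fall of *Lilrb4a* with RSM no longer passed without replicate 1 (FDR = 0.141). Values of both genes carry some doubt about the source of reads: 28.9% of the longest coding transcript of *Lilrb4a* is near-identical to its neighbour *Lilr4b*, which had 10158 to 20892 counts per library, and 19.4% of that of *Pirb* to transcripts of other genes, chiefly *Lilra6* (at least 98% identity over at least 100 bp), which had 37 to 384. On the same strand *Gm49339*, with 16 to 55 counts per library, shares 35.3% of the exonic bases of *Lilrb4a*. All of the longest coding transcript of *Lilrb4a* (100% of 1381 bp) is near-identical to transcripts of the overlapping genes *Gm49339* and *Gm40645*. How reads from such shared bases were assigned cannot be told from the counts.

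*Ptpn6* (ENSMUSG00000004266, chr6:124720707-124738714) fell further than any other member with HC3. It was at 325.8, 332.2 and 325.9 CPM in Veh M[0], at 118.2, 114.4 and 112.2 CPM with HC3, and at 136.1, 131.2 and 142.9 CPM with RSM. The 3 treatments formed separate bands, with HC3 lowest. The log2 fold change was -1.51 (SE 0.06, FDR = 4.09e-13) with HC3, leaving 35.1% of the vehicle level, and -1.26 (SE 0.06, FDR = 6.3e-12) with RSM, leaving 41.7%. An antisense gene, *Gm20531*, shares 6.96% of the exonic bases of *Ptpn6*, and it had at most 3 counts in any library.

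*Inpp5d* (ENSMUSG00000026288, chr1:87620312-87720507), the other phosphatase, separated the inhibitors more. Its level was 428.3, 423.4 and 419.2 CPM in Veh M[0], 203.7, 211.8 and 196.3 CPM with HC3, and 280.1, 314.8 and 290.2 CPM with RSM. Again the 3 treatments did not overlap. HC3 left 48.2% of the vehicle level (log2 fold change -1.05, SE 0.06, FDR = 1.73e-10) and RSM 69.7% (-0.52, SE 0.06, FDR = 2.09e-06).

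Among the kinases, *Lyn* (ENSMUSG00000042228, chr4:3678115-3813122) was at 297.9, 278.3 and 265.4 CPM in Veh M[0], at 123.3, 124.6 and 106.8 CPM with HC3, and at 154.5, 158.2 and 141.9 CPM with RSM. All inhibitor libraries were below all vehicle libraries, and HC3 below RSM. The log2 fold change was -1.25 (SE 0.09, FDR = 1.89e-09) with HC3 and -0.89 (SE 0.09, FDR = 1.85e-07) with RSM. A near-identical stretch of the pseudogene *Gm11787* covers 30.3% of the longest coding transcript of *Lyn*, and that pseudogene had 2 to 22 counts per library.

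*Ptk2b* (ENSMUSG00000059456, chr14:66153257-66281052) was at 398.3, 405.4 and 395.4 CPM in Veh M[0], at 217.8, 227.5 and 223.1 CPM with HC3, and at 216.9, 222.3 and 214.4 CPM with RSM. Replicates lay within a few CPM of each other, and the inhibitors gave overlapping values. The log2 fold change was -0.84 (SE 0.05, FDR = 1.43e-10) with HC3 and -0.88 (SE 0.05, FDR = 9.91e-11) with RSM.

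*Syk* (ENSMUSG00000021457, chr13:52583173-52648792) moved least. It was at 520.4 ± 48.3 CPM in Veh M[0], 408.8 ± 27.9 with HC3 and 460.8 ± 47.9 with RSM. With HC3 all libraries were lower (log2 fold change -0.35, SE 0.09, FDR = 0.0049), a call that was lost without replicate 3 (FDR = 0.0692). With RSM the libraries overlapped with vehicle and the difference did not pass (-0.18, SE 0.09, 95% interval -0.37 to 0.02, FDR = 0.141). It did pass with the replicate number as a block within each polarization (-0.18, FDR = 0.000457).

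*Fgr* (ENSMUSG00000028874, chr4:132974095-133001910), a Src family kinase of myeloid cells, was rare throughout. Its level was 3.21, 4.70 and 2.47 CPM in Veh M[0], 0.963, 2.20 and 2.05 CPM with HC3, and 0.854, 1.67 and 1.03 CPM with RSM. Every inhibitor library was below every vehicle library, but spread within groups was wide. The fall with RSM passed (-1.54, SE 0.43, FDR = 0.0072) and was lost without replicate 1 (FDR = 0.0778). The value with HC3 did not pass (-0.98, SE 0.41, FDR = 0.0587), whereas the block within each polarization took it past the threshold (-0.99, FDR = 0.00109).

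**Figure D2:**
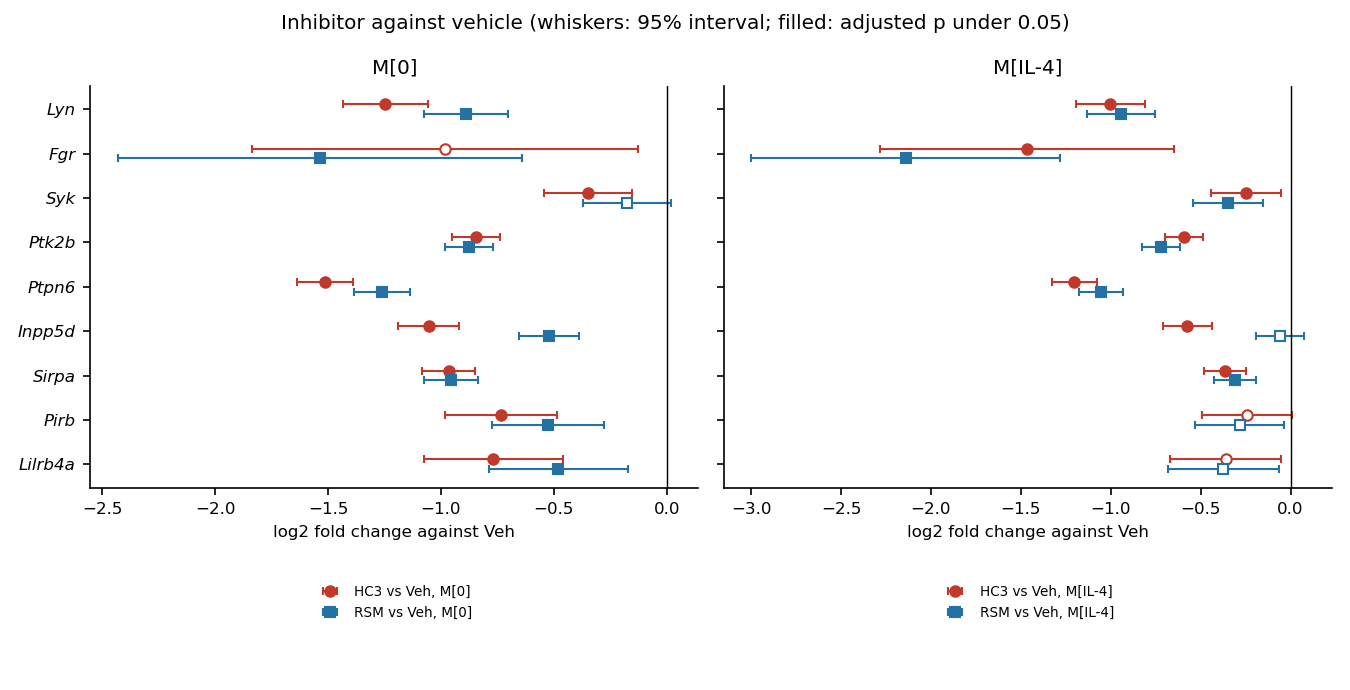
Log2 fold change against vehicle (x axis) of each gene with HC3 (circles) and RSM (squares), in M[0] (left) and M[IL-4] (right). Whiskers are 95% intervals and filled symbols passed an FDR of 0.05. All points lie left of 0, and those of *Sirpa* are nearer to 0 in M[IL-4] than in M[0].

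The same comparison was made in macrophages polarized with IL-4. HC3 lowered 7 of 9 genes at an FDR under 0.05, against 19.9% of all genes, and RSM 6 of 9, against 18.5%. With the demand on fold size, HC3 lowered *Lyn*, *Ptpn6* and *Fgr* (3 of 9, against 5.53%) and RSM *Ptpn6* and *Fgr* (2 of 9, against 6.00%). The median of the members was -0.57 with HC3 and -0.37 with RSM, beside 0.01 and 0.02 over all genes.

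*Ptpn6* was again among the members that fell furthest, after *Fgr* with both inhibitors. It was at 209.7, 240.3 and 232.8 CPM in Veh M[IL-4], at 93.8 to 102.7 CPM with HC3, and at 108.6, 113.6 and 106.4 CPM with RSM. Vehicle stood apart from both inhibitors. The log2 fold change was -1.20 (SE 0.06, FDR = 1.56e-11) with HC3 and -1.05 (SE 0.06, FDR = 8.91e-11) with RSM.

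*Inpp5d* behaved differently under the 2 inhibitors. It was at 273.1, 271.0 and 253.8 CPM in Veh M[IL-4], at 168.6, 192.3 and 175.4 CPM with HC3, and at 238.1, 268.4 and 260.5 CPM with RSM. HC3 libraries were all lower than vehicle, while RSM libraries overlapped with it. The fall with HC3 was -0.57 on the log2 scale (SE 0.06, FDR = 8.33e-07), and the value with RSM was -0.06 (SE 0.06, 95% interval -0.19 to 0.08, FDR = 0.519).

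*Lyn* was at 177.8, 220.1 and 197.3 CPM in Veh M[IL-4], at 95.5, 109.7 and 92.0 CPM with HC3, and at 93.6, 107.6 and 108.6 CPM with RSM. Both inhibitors left it below every vehicle library, with overlapping values of their own. The log2 fold change with HC3 (SE 0.09, FDR = 5.19e-08) lay on the fold threshold: it was just inside at -1.0015 and just outside with the block within each polarization, at -0.9996, and without replicate 3, at -0.95. With RSM it was -0.94 (SE 0.09, FDR = 1.01e-07).

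*Ptk2b* fell from 276.5, 281.7 and 253.8 CPM to 182.4, 181.1 and 175.5 CPM with HC3 (-0.59, SE 0.05, FDR = 2.68e-08) and to 163.7, 169.7 and 159.8 CPM with RSM (-0.72, SE 0.05, FDR = 1.88e-09). Every inhibitor library was below every vehicle library, and every RSM library below every HC3 library. *Sirpa* fell from 2251, 2443 and 2271 CPM to 1782, 1890 and 1744 CPM with HC3 (-0.36, SE 0.06, FDR = 3.75e-05) and to 1798, 1981 and 1838 CPM with RSM (-0.31, SE 0.06, FDR = 0.000188). Here too the vehicle libraries were the highest, and 77.8% and 80.7% of their level remained, compared with 51.2% and 51.6% in M[0].

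*Syk* fell with HC3 (-0.25, SE 0.09, FDR = 0.0413) and with RSM (-0.35, SE 0.09, FDR = 0.00554), and neither call held without replicate 3 (FDR = 0.211 and 0.0832). *Fgr* fell from 5.17, 9.52 and 3.53 CPM to 2.09, 3.21 and 1.26 CPM with HC3 (-1.47, SE 0.39, FDR = 0.00554) and to 1.32, 1.72 and 1.06 CPM with RSM (-2.14, SE 0.41, FDR = 0.000334). Every library with an inhibitor was below every vehicle library, the nearest being 3.21 CPM with HC3 and 3.53 CPM with vehicle.

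For the receptors *Pirb* and *Lilrb4a* the differences in M[IL-4] did not pass. *Pirb* was at 342.2 ± 64.1 CPM in Veh, 289.3 ± 33.4 with HC3 (-0.24, SE 0.12, FDR = 0.119) and 281.2 ± 28.2 with RSM (-0.28, SE 0.12, FDR = 0.0682). *Lilrb4a* was at 373.4 ± 71.4, 290.5 ± 47.9 (-0.36, SE 0.15, FDR = 0.0589) and 288.2 ± 28.1 CPM (-0.37, SE 0.15, FDR = 0.0517). In each gene all same-numbered pairs were lower with inhibitor, and all 4 differences passed with the block within each polarization, at an FDR of 0.000788 and 0.000145 for *Pirb* and 1.01e-05 and 8.77e-06 for *Lilrb4a*.

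The next question was how IL-4 itself moved these genes. In vehicle-treated cells, 6 of 9 passed, all lower in M[IL-4], against 31.0% of all genes in either direction. *Pirb* fell to 61.7% of its M[0] level (-0.70, SE 0.12, FDR = 0.000172), *Inpp5d* to 62.8% (-0.67, SE 0.06, FDR = 1.68e-07), *Ptk2b* to 67.7% (-0.56, SE 0.05, FDR = 7.75e-08) and *Ptpn6* to 69.4% (-0.53, SE 0.06, FDR = 1.1e-06). *Lyn* fell to 70.7% (-0.50, SE 0.09, FDR = 0.000255) and *Sirpa* to 73.7% (-0.44, SE 0.06, FDR = 6.45e-06). In these 6 genes every M[IL-4] library was below every M[0] library, as in 19.7% of all genes. None reached a log2 fold change of 1. *Syk* (-0.11, 95% interval -0.30 to 0.08) and *Lilrb4a* (-0.11, -0.42 to 0.20) did not pass. *Fgr*, at 3.46 ± 1.13 CPM in M[0] and 6.07 ± 3.10 in M[IL-4], had a positive value that did not pass (0.81, SE 0.37, FDR = 0.11). It passed in 2 of 10 alternative fits. These were the block over all libraries (0.77, FDR = 0.011) and the fit with no count filter (0.83, FDR = 0.00751).

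With HC3, 2 of 9 genes passed for IL-4, *Ptk2b* (-0.31, SE 0.05, FDR = 0.000239) and *Ptpn6* (-0.22, SE 0.06, FDR = 0.0178), against 14.7% of all genes. With RSM, 7 of 9 passed, against 15.5%: *Lyn* (-0.55), *Syk* (-0.28), *Ptk2b* (-0.41), *Ptpn6* (-0.32), *Inpp5d* (-0.21) and *Pirb* (-0.46, SE 0.12, FDR = 0.0119) were lower and *Sirpa* was higher (0.20, SE 0.06, FDR = 0.016). *Sirpa* was thus lower with IL-4 in vehicle and higher with IL-4 under RSM, where 1798, 1981 and 1838 CPM in M[IL-4] all exceeded 1576, 1669 and 1629 CPM in M[0]. Under HC3 its libraries were likewise all higher in M[IL-4], at 1744 to 1890 against 1598 to 1619 CPM, but the value did not pass (0.16, SE 0.06, FDR = 0.0578). Several of these smaller calls rested on few libraries, since 3 of the 7 under RSM passed without replicate 1 and 2 without replicate 3. The rise of *Sirpa* under RSM was lost when any 1 replicate was left out (FDR = 0.071 to 0.232).

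Whether the inhibitors changed the response to IL-4 was tested as an interaction, the log2 fold change for IL-4 under inhibitor less that in vehicle. It passed for 4 of 9 genes with HC3, against 6.48% of all genes, and for 2 of 9 with RSM, against 9.19%. All were positive, that is, the fall with the inhibitor was smaller in M[IL-4] than in M[0]. *Sirpa* had the largest passing value with HC3 (0.60, SE 0.08, FDR = 0.000137) and with RSM (0.65, SE 0.08, FDR = 3.34e-05). *Inpp5d* followed with HC3 (0.48, SE 0.09, FDR = 0.00276) and with RSM (0.46, SE 0.09, FDR = 0.00235). *Ptpn6* (0.31, SE 0.08, FDR = 0.0305) and *Ptk2b* (0.25, SE 0.07, FDR = 0.0411) passed with HC3, and the corresponding values with RSM were 0.21 (SE 0.08, FDR = 0.139) and 0.16 (SE 0.07, FDR = 0.207). With the block within each polarization 7 genes passed with HC3 and 5 with RSM. Among the latter *Syk* had a negative value (-0.17, FDR = 0.0287), that is, a larger fall with RSM in M[IL-4]. Without replicate 3, 0 of 9 passed with HC3 in edgeR, although 5 had an unadjusted p under 0.05 and *Sirpa* was at 0.61 (FDR = 0.0713), and 73 of 14686 genes passed in all. With RSM *Sirpa* alone passed without replicate 3, where *Inpp5d* had an FDR of 0.184. The calls of *Ptpn6* and *Ptk2b* with HC3 were lost when any 1 replicate was left out (FDR = 0.093 to 0.263 and 0.113 to 0.418).

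**Figure D3:**
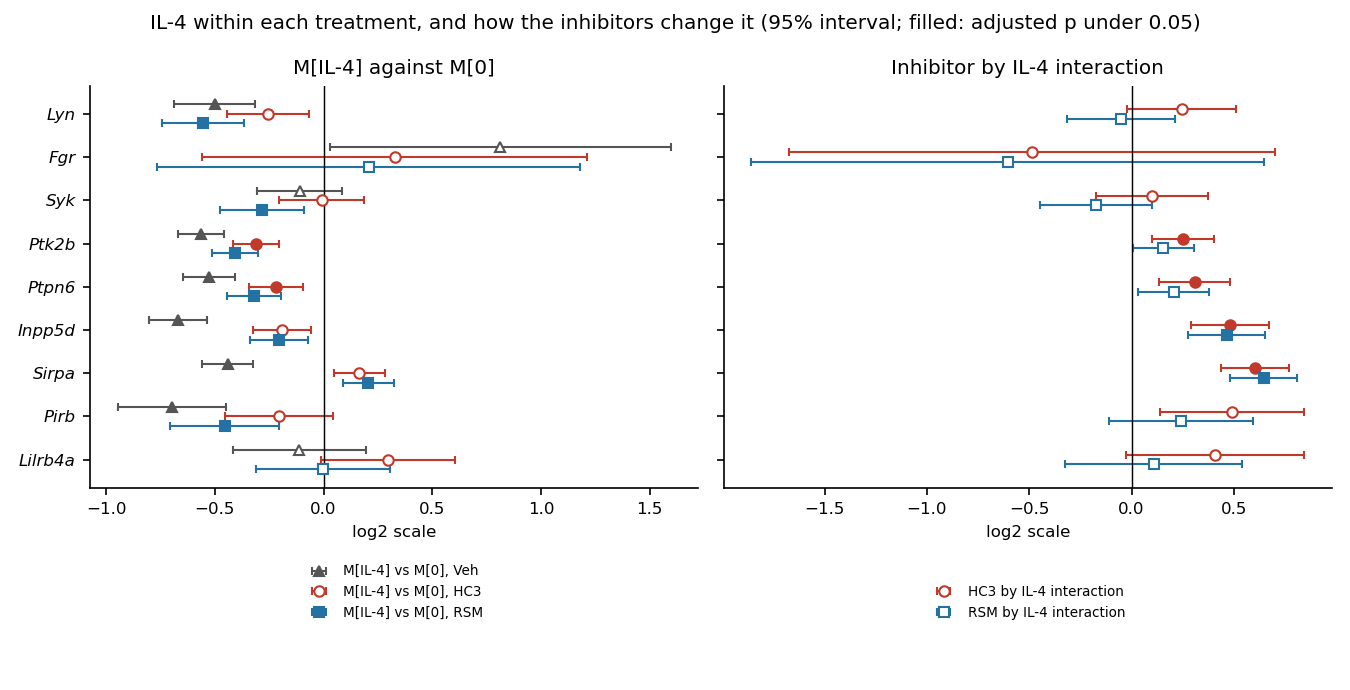
Left, log2 fold change of M[IL-4] against M[0] for each gene under Veh (triangles), HC3 (circles) and RSM (squares). Right, interaction of each inhibitor with IL-4 on the log2 scale. Whiskers are 95% intervals and filled symbols passed an FDR of 0.05. *Sirpa* lies left of 0 in vehicle and right of 0 under both inhibitors.

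HC3 and RSM act on successive steps of choline use, and their libraries were compared directly at the single doses given, 250 and 5 µM, so that compound and dose cannot be told apart. In M[0], 3 of 9 genes differed, against 13.6% of all genes, each lower with HC3: *Inpp5d* (-0.53, SE 0.06, FDR = 1.06e-05), *Lyn* (-0.36, SE 0.09, FDR = 0.0105) and *Ptpn6* (-0.25, SE 0.06, FDR = 0.00672). In M[IL-4], 1 of 9 differed, against 13.0%, again *Inpp5d* (-0.52, SE 0.06, FDR = 1.56e-05). Without replicate 3, *Inpp5d* alone passed in M[0]. For *Sirpa* the difference was -0.01 in M[0] (95% interval -0.13 to 0.11) and -0.05 in M[IL-4] (-0.17 to 0.06), and for *Ptk2b* 0.03 (-0.07 to 0.14) and 0.13 (0.02 to 0.23). A missed threshold does not show that the inhibitors act alike on these genes. With the block within each polarization, *Syk*, *Pirb* and *Lilrb4a* also passed in M[0] (6 of 9) and *Ptk2b* and *Ptpn6* in M[IL-4] (3 of 9).

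**Figure D4:**
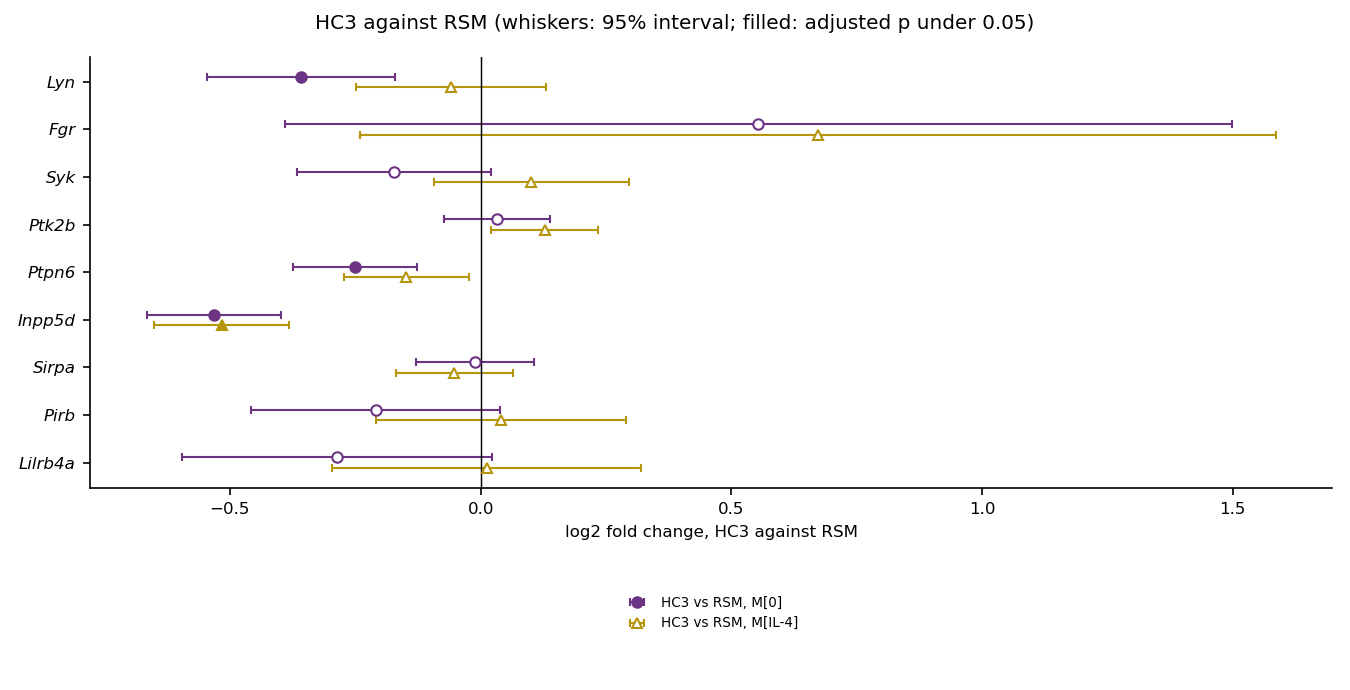
Log2 fold change of HC3 against RSM (x axis) for each gene in M[0] (circles) and M[IL-4] (triangles), with 95% intervals. Filled symbols passed an FDR of 0.05. *Inpp5d* is the gene whose symbols are filled in both polarizations, at -0.53 and -0.52.

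Between genes, levels can be set side by side per kilobase of exon, here the merged exons of all transcripts of a gene. These measure 5227 bp for *Lilrb4a*, 7602 bp for *Inpp5d* and 7398 bp for *Ptk2b*. Their longest coding transcripts have 1381, 4937 and 4034 bp. The order of genes at close levels, and the place of *Lilrb4a*, therefore hold for this length only, and other lengths were not tested. In Veh M[0] *Sirpa* led with 641.6 ± 15.5 CPM per kb, followed by *Pirb* (124.1 ± 16.0) and *Ptpn6* (117.0 ± 1.30), whose ranges overlapped, then *Lilrb4a* (77.2 ± 9.58) and *Lyn* (68.9 ± 4.02), which also overlapped. *Inpp5d* (55.7 ± 0.599) lay above *Ptk2b* (54.0 ± 0.697) with no overlap, *Syk* (55.6 ± 5.16) overlapped with both, and *Fgr* was last with 0.896 ± 0.294 CPM per kb. Under HC3 in M[0] *Sirpa* stayed first at 328.3 ± 2.47 CPM per kb, and *Ptpn6*, at 41.0 ± 1.08, overlapped with *Syk* at 43.7 ± 2.98. In HC3 M[IL-4] *Syk* (43.4 ± 3.56 CPM per kb) lay above *Ptpn6* (35.3 ± 1.64) with no overlap. *Sirpa* was first and *Fgr* last in all 6 groups.

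The genes most alike in pattern were sought over the 18 libraries among about 8810 genes with a mean of at least 10 CPM, by Pearson correlation of log2 CPM. These values describe the libraries and reflect that most of the spread lies between the 6 groups. *Ptpn6* was followed most closely by *Tmsb4x* (r = 0.99), which encodes the actin-binding thymosin β4, then by *Cyfip1*, *Vsir*, *Il10ra* and *Zc3h12d* (r = 0.98 to 0.99). The nearest genes were *Ap1s2* for *Lyn* (0.99), *Rnf150* for *Inpp5d* (0.99), *Arap3* for *Ptk2b* (0.99), *Pcyox1* for *Sirpa* (0.98) and *Kif3b* for *Pirb* (0.97). For *Lilrb4a* it was *Lilr4b* (0.99), the neighbour with which it shares sequence. For *Syk* it was *Slc44a1* (0.90), which encodes a choline transporter, and for *Fgr* *Litaf* (0.90). Within the set, *Lyn* and *Ptpn6* ran most closely together (r = 0.97), while *Fgr* and *Inpp5d* did so least (r = 0.28).

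Other genes of the pathway were taken from 8 lists by role, to be read against the share of all genes tested. In M[0] 21.5% of all genes fell and 22.6% rose with HC3, and 20.7% fell and 20.5% rose with RSM. Of the other Src family kinases 6 of 7 were tested, and in M[0] 4 rose and 1 fell with HC3, while 2 rose and 1 fell with RSM. *Yes1*, a widely expressed family member, was higher in M[0] at 4.58 ± 0.54 CPM with HC3 and 3.84 ± 1.10 with RSM against 1.55 ± 0.74 (1.56, FDR = 0.000385, and 1.30, FDR = 0.00214). The list median in M[0] was 0.57 with HC3 and 0.30 with RSM, beside 0.02 and 0.01 over all genes.

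Of the 7 brakes and switches of Src kinases (*Csk*, *Pag1* and receptor-type and other phosphatases), 6 fell and 1 rose with HC3 in M[0], and 5 fell and 1 rose with RSM. *Ptprj*, a receptor phosphatase also known as CD148, went from 393.3 ± 21.1 CPM to 123.6 ± 7.98 with HC3 (-1.67, FDR = 2.08e-13) and 179.3 ± 6.12 with RSM (-1.13, FDR = 4.33e-11). The list median was -0.67 and -0.66. Of the 12 tested other cytoplasmic tyrosine kinases, 6 fell and 3 rose with HC3, and 3 fell and 3 rose with RSM, with medians of -0.13 and -0.07.

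The receptors moved both ways. Of 20 ITAM receptors and adaptors tested, 10 fell and 3 rose with HC3 in M[0], and 8 fell and 9 rose with RSM. *Clec4e*, which encodes the activating receptor Mincle, went from 26.7 ± 5.53 CPM to 111.7 ± 18.4 with HC3 (2.07, FDR = 2.27e-07) and 218.3 ± 13.7 with RSM (3.03, FDR = 1.78e-09). *Lilra6*, an activating relative of *Pirb* with which it shares sequence, rose from 5.01 ± 1.18 CPM to 14.6 ± 2.85 and 18.8 ± 1.43, where *Pirb* itself fell.

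Of 18 other ITIM receptors tested, 9 fell and 4 rose with HC3 in M[0], and 7 fell and 8 rose with RSM. *Clec12a*, an inhibitory lectin receptor, went from 548.5 ± 45.7 CPM to 133.3 ± 7.44 (-2.04) and 111.7 ± 10.5 (-2.30), and *Cd72* from 327.0 ± 6.54 to 62.7 ± 4.72 (-2.38) and 52.5 ± 0.945 (-2.64). Both genes had values larger in size than those of *Sirpa*, *Pirb* and *Lilrb4a*, a difference that was not tested. They were named because their mean change was among the largest of the list, whereas the members were chosen by symbol and role. *Siglecg* rose from 1.02 ± 0.19 CPM to 6.63 ± 2.06 (2.69) and 3.64 ± 1.06 (1.82).

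Of 19 phosphatases and adaptors that work beside SHP-1 and SHIP1, 10 fell and 3 rose with HC3 in M[0], and 9 fell and 3 rose with RSM. *Dok2*, an adaptor that restrains kinase signals, went from 64.4 ± 9.04 CPM to 24.0 ± 1.93 (-1.43) and 37.8 ± 4.54 (-0.77). *Sh2d1b1*, another adaptor, went from 9.80 ± 2.03 CPM to 3.76 ± 0.78 (-1.38) and 0.876 ± 0.333 (-3.48). The list medians were -0.60 and -0.08.

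The 22 kinase targets and effectors, among them phospholipase C, Vav and PI3-kinase genes, were the most one-sided list by count. In M[0], 19 fell and 1 rose with HC3 and 15 fell with RSM, with medians of -0.48 and -0.42. In M[IL-4], 15 fell with HC3, and 14 fell and 1 rose with RSM, with medians of -0.37 and -0.26. Of the 12 ligands and upstream receptors, 6 fell and 4 rose with HC3 in M[0] and 5 fell and 2 rose with RSM. *Apoe*, whose product binds human LILRB4, was at 5340 ± 1912 CPM in Veh M[0], 1991 ± 456.2 with HC3 (-1.42, FDR = 0.000102) and 1585 ± 486.9 with RSM (-1.75, FDR = 1.2e-05), with a wide spread among vehicle libraries.

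In M[IL-4] the shares of all genes were 19.9% lower and 18.9% higher with HC3, and 18.5% lower and 20.1% higher with RSM. With HC3, 2 fell and 1 rose among Src family kinases, and 6 fell and 1 rose among their brakes and switches. Among other tyrosine kinases 5 fell and 3 rose, and among phosphatases and adaptors 8 fell and 2 rose. For ITAM receptors 10 fell and 5 rose, for ITIM receptors 7 fell and 5 rose, and for ligands 5 fell and 4 rose. With RSM falls and rises were closer in number, at 5 and 6 for ITAM receptors and 5 and 8 for ITIM receptors. They numbered 7 and 7 for phosphatases and adaptors, 3 and 4 for other tyrosine kinases and 4 and 5 for ligands. Among the brakes and switches, however, 5 fell and 1 rose, and among Src family kinases 1 fell and 2 rose.

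**Figure D5:**
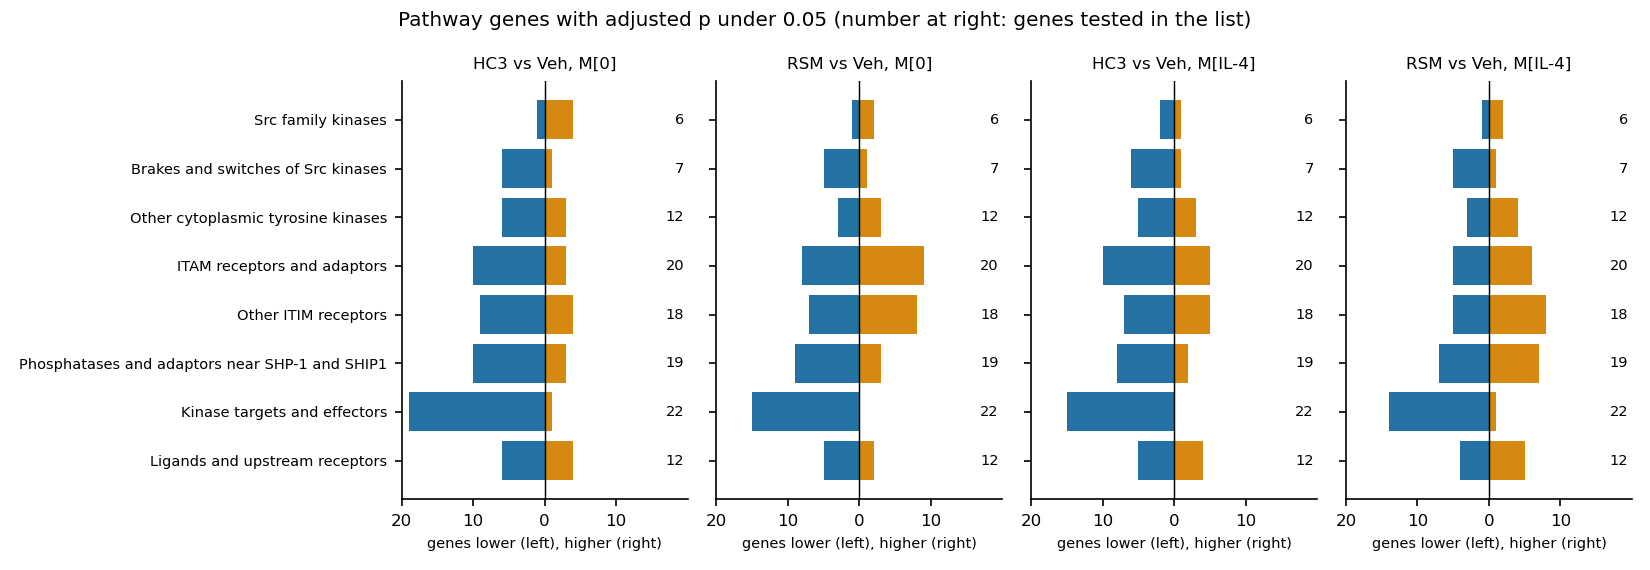
Number of genes lower (left of 0) and higher (right of 0) at an FDR under 0.05 in each of the 8 pathway lists (y axis) and each comparison of an inhibitor with vehicle. The number at the right of each bar is how many genes of the list were tested. Kinase targets and effectors reach 19 lower of 22 with HC3 in M[0].

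Markers of the cells were read beside these results. All 10 macrophage markers were tested, and their summed level was 22820 to 23820 CPM in Veh M[0], 9028 to 10070 with HC3 and 16300 to 17680 with RSM, and in M[IL-4] 13720 to 14360, 7772 to 8957 and 11090 to 13570 CPM. Much of this sum was *Lyz2*, with a mean of 11630 CPM in Veh M[0], 5071 with HC3 and 11660 with RSM, and of 4531, 2870 and 5903 CPM in M[IL-4]. The other 9 markers summed to 11490 to 11820, 4264 to 4497 and 5098 to 5423 CPM in M[0] and to 9280 to 9798, 5225 to 5473 and 6067 to 6763 CPM in M[IL-4], although *Fcgr1* had a higher mean with either inhibitor in M[IL-4] (81.1 and 81.1 against 51.4 CPM) and *Cd14* with RSM (139.2 against 130.2 CPM). The summed stromal markers, 5 of 6 tested, went the other way in M[0], from 506.6 to 855.2 CPM in Veh to 1199 to 1644 with HC3 and 997.8 to 1423 with RSM, and in M[IL-4] they were at 278.3 to 647.7, 550.4 to 1038 and 527.3 to 1045 CPM. The 3 collagen genes made up most of that sum, while in M[0] *Dcn* had means of 8.50, 7.91 and 2.99 CPM and *Pdgfra* of 22.1, 19.0 and 16.2 CPM in Veh, HC3 and RSM. Marker sums of B cells were 26.6 to 34.3 CPM in Veh M[0] and 4.36 to 17.8 CPM in the other groups, and those of neutrophils, T or NK cells and dendritic cells at most 2.90 CPM. *S100a9*, *Elane*, *Retnlg*, *Cd3g*, *Cd3d*, *Mcpt4* and *Fcer1a* were at 0 in every library. Mast cell markers summed to 3.07 to 5.35 CPM in Veh M[0], 11.1 to 19.1 with HC3 and 2.72 to 3.63 with RSM. Most of that sum was *Kit*, with means of 3.68, 14.05 and 2.81 CPM. The share of counts from mitochondrial genes was 1.68 to 2.03% in Veh M[0], 2.51 to 3.45% with HC3 and 0.71 to 0.81% with RSM. Leaving these genes out kept the direction of all differences from vehicle, and it took *Lilrb4a* in M[IL-4] with RSM past the threshold (-0.39, FDR = 0.0423). The part of these shifts in the results on the members was not tested.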

How the data were processed

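Poly-T selected RNA of 18 libraries was sequenced by the authors, who used fastp for trimming, STAR for alignment to GRCm38 with only pairs of high mapping quality kept, Picard to mark duplicates (which stayed in) and featureCounts of Subread to assign pairs to the exons of each gene. Versions, annotation release and strand setting are not given in the sources used here. The deposited values are these raw counts per Ensembl gene, not normalized, and no column was left unused. Groups came from the sample labels, which do not say which mouse a replicate number stands for. Depth was 17457796 to 19522255 counts per library, and replicates differed beyond counting error (7.94 to 12.9 on a chi-square scale per degree of freedom).

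Symbols and positions came from GENCODE M21 (GRCm38), which matched 55144 of 55385 genes. A count of 10 or more in 2 or more libraries was required, which 14979 genes met. These were fitted by quasi-likelihood in edgeR 4.0.16 (R 4.3.3) after TMM scaling, all 18 libraries together, each group having its own coefficient, without a block. The study's methods name edgeR, this test and this filter, whereas its scaling and design formula are not given in the sources used here. P-values were adjusted by Benjamini-Hochberg across all genes tested (FDR). An exact permutation test of 3 against 3 libraries cannot go below 0.1 and was not used. Intervals are 95% intervals of the fit. Levels are TMM-scaled CPM, per kb of merged exons where genes are compared.

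Same-numbered libraries of 1 polarization deviated together (correlations of 0.11 to 0.37, over 0.1 in 18 of 18 pairs), and across polarizations 12 of 27 pairs did so. A block on the replicate number within each polarization is therefore given where it changes a call. Other alternatives were a block over all libraries, DESeq2 1.42.0, other filters, library-size scaling, only the groups compared, mitochondrial genes left out, and each replicate left out. The members and lists were chosen with earlier results of these data known. All 9 members are named; of each list, at most 3 genes called in at least 3 of the 4 inhibitor comparisons with the largest mean change and at least 50 counts in the highest group; and the genes most alike in pattern (log2 CPM, prior count 2). *Lilrb4b* of the ITIM list was not matched by symbol. Near-identical sequence was sought with BLAST+ 2.17.0. Only the edgeR fit without a block was tested on simulated counts, in which same-numbered libraries did not deviate together. The values of some genes in these lists are not reported here.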

Additional observations from a re-analysis of the deposited data

Results flagged for a closer look

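The response to IL-4 differed between vehicle and inhibitor for 4 genes with HC3 and 2 with RSM, by the interaction term of the edgeR fit. On the log2 scale the interaction with HC3 was 0.60 for *Sirpa* (0.6037, FDR = 0.000137), 0.48 for *Inpp5d* (0.4808, FDR = 0.00276), 0.31 for *Ptpn6* (0.3097, FDR = 0.0305) and 0.25 for *Ptk2b* (0.2517, FDR = 0.0411). With RSM it was 0.65 for *Sirpa* (0.6454, FDR = 3.34e-05) and 0.46 for *Inpp5d* (0.4648, FDR = 0.00235). The comparisons with HC3 and with RSM share the vehicle libraries. Without replicate 3 the interaction of *Sirpa* with HC3 had an FDR of 0.0713 and that of *Inpp5d* 0.207, and *Inpp5d* with RSM 0.184. The interactions of *Ptpn6* and *Ptk2b* with HC3 were lost when any 1 replicate was left out (FDR = 0.093 to 0.263 and 0.113 to 0.418). The summed macrophage markers were at 22820 to 23820 CPM in Veh M[0] and 9028 to 10070 with HC3, and at 13720 to 14360 and 7772 to 8957 in M[IL-4], and their part in this was not tested.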

How the results depend on the processing

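Over 99 log2 fold changes of the members and 1062 recomputed values, 941 kept their direction and side of the FDR threshold, 41 kept direction and no longer passed, 69 newly passed and 11 changed sign. Counts of members past the FDR that moved most were those with small effects. For IL-4 under HC3 (2 genes) the count was 4 with library-size scaling, 1 with only the compared groups, 7 with the replicate block, and 1 to 2 with a replicate left out. For IL-4 under RSM (7 genes) it was 4 with only the compared groups and 2 to 5 with a replicate left out. For HC3 against RSM in M[0] (3 genes) it was 5 with no count filter, 6 with the replicate block over all libraries and 6 within each polarization, and 1 to 5 with a replicate left out; in M[IL-4] (1 gene) it was 3 within each polarization. The interaction with HC3 (4 genes) gave 7 with the replicate block within each polarization and 0 to 4 with a replicate left out, and that with RSM (2 genes) 5 and 1 to 2. The count of members past both FDR and fold for RSM in M[0] was 1 to 2 with a replicate left out. The cause of these changes was not tested.

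The sign changes were all of values that did not pass. *Syk* for IL-4 under HC3 was 0.0154 with no count filter and 0.0069 without mitochondrial genes. With a replicate left out, the log2 values ran from -0.0174 to 0.0099 for it, from -0.1032 to 0.0159 for *Inpp5d* with RSM in M[IL-4], from -0.0633 to 0.0289 (0.0073 between) for *Lilrb4a* for IL-4 under RSM, from -0.0229 to 0.212 for its interaction with RSM and from -0.0463 to 0.0716 for it in HC3 against RSM in M[IL-4]. They ran from -0.0471 to 5e-04 for *Sirpa* in HC3 against RSM in M[0], and for *Lyn* from -0.0999 to 0.0326 in the interaction with RSM and from -0.1019 to 0.0293 in HC3 against RSM in M[IL-4]. The depth of *Fgr*, at 16 to 164 counts, limits its values.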
